A study of Mus musculus with 30 samples.

Results

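Tumors grown from a transplanted fibrosarcoma line are fed by blood vessels of the host mouse, and RNA of those vessels is part of what is counted when a tumor is sequenced. The transcripts described here are 36 genes known for their expression in vascular endothelial cells, chosen by gene symbol: Pecam1, Cdh5, Kdr, Flt1, Flt4, Tek, Tie1, Eng, Vwf, Emcn, Esam, Cldn5, Plvap, Egfl7, Erg, Fli1, Robo4, Ptprb, Mmrn2, Mmrn1, Sox7, Sox17, Sox18, Ecscr, Rasip1, Gpihbp1, Cd34, Icam2, Nos3, Esm1, Apln, Aplnr, Ramp2, Calcrl, Clec14a and She. All 36 were found among the 48440 genes of the count table, on 18 chromosomes, and all 36 passed the filter on low counts, which left 16862 genes for testing. The lowest count of any of them in any tumor was 3, for Sox17 in 1 MCA-948 tumor.

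Bulk RNA was sequenced from 30 tumors of 5 primary fibrosarcoma lines induced by methylcholanthrene (MCA), grown in C57BL/6 mice and depleted of CD45+ leukocytes with beads. MCA-943 (4 tumors) and MCA-969 (8 tumors) are lines that the paper classed as non-sensitive to cells bearing NK1.1. It classed MCA-948 (8 tumors), MCA-970 (6 tumors) and MCA-972 (4 tumors) as sensitive to them. The classes come from a cutoff on the p-value of a log-rank test of survival with and without depletion of these cells. The paper describes the reactivity of its lines as graded. The labels give a mouse strain, Ncr1Cre for MCA-943 and Ncr1Cre R26DTA for the others, and do not say whether it is that of the mouse in which the line arose or of the tumor's host. The latter is a combination in which diphtheria toxin A is expressed in cells that express Ncr1, mainly NK cells. In the paper, lines arose in mice of these genotypes given MCA. They were then transplanted into C57BL/6 mice with or without an antibody that depletes cells bearing NK1.1. The series is described as including wild-type and NK-deficient hosts. Which tumor came from which host, or from a mouse given the antibody, is not stated, and neither is animal age. Each line is 1 isolate, so a difference between sensitive and non-sensitive lines cannot be told apart from a difference between these 5 lines. In MCA-969, W-1D and W-2D carry a label of sensitive, unlike the other 6 tumors, and these 2 were kept with their line. Tumors are named here by line and title code, in which a letter W or a is followed by a code such as 1D, 2G or R. What these mean is not stated, and 1 MCA-972 tumor (2G) has no letter. Nothing says that each tumor came from a separate animal, so p-values measure the spread between tumors of a line.

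Endothelial cells line every vessel. They hold together through junction proteins such as VE-cadherin (Cdh5), PECAM-1, claudin-5 and ESAM, and read growth signals through the VEGF receptors (Kdr, Flt1, Flt4) and the angiopoietin receptor pair Tek and Tie1. Their identity is held by transcription factors of the ETS family (Erg, Fli1) and of the SOXF group (Sox7, Sox17, Sox18). Several of the 36 genes are also known outside endothelium: CD34 and endoglin (Eng) mark stromal and progenitor cells, Flt4 and Mmrn1 are prominent in lymphatic endothelium, and Pecam1, Icam2, Fli1 and Vwf are found in leukocytes or platelets. In bulk RNA, fewer endothelial cells and less RNA per endothelial cell cannot be told apart, and the RNA of host and tumor cells is counted together.

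Total counts per tumor lay between 27745104 and 46537062, so that 3 counts, the limit that a count of 0 allows, correspond to 0.0602 to 0.113 CPM, the count of a gene relative to the library's total. Such limits cover counting error only. Levels are given as CPM with totals scaled by TMM (trimmed mean of M-values) factors. A pair of features of the libraries bear on what follows. MCA-970 tumors W-1D and W-R held summed leukocyte marker levels of 418 and 262 CPM over 23 genes, against 49.4 to 84.6 CPM in the other 4 tumors of the line, and both were low in most endothelial transcripts. The library numbers fall into 3 ranges, called runs here, 1 with 6 MCA-969 and 4 MCA-972 tumors, 1 with 6 MCA-970 tumors and 2 each of MCA-948 and MCA-969, and 1 with 4 MCA-943 and 6 MCA-948 tumors, so that run and line overlap strongly. The last of these has gaps, its index numbers continue into those of the MCA-970 run, and no label says what a range stands for, so that the division is 1 reading of the numbers. Those of the MCA-970 run continue in turn into MCA-969 W-2G and WR of the first range, and the numbering then restarts with the MCA-969 a tumors.

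Of the 36 genes, 19 have an entry in the RefSeq promoter table used here (build GRCm38.p6, 250 bases before to 50 after each gene start). Promoters of 4 genes are shown because they stand for the patterns described below: Tie1 and Robo4 for transcripts that moved together from tumor to tumor, and Cd34 and Esm1 for transcripts that did not. Each is written 5′ to 3′ on the strand of its gene, and capitals mark AGGAAG or CGGAAG, cores that ETS factors bind, or their reverse complements CTTCCT and CTTCCG. Such matches did not divide the genes by pattern: Tek, Kdr, Flt4 and Cldn5, which moved with Tie1, hold none, and Egfl7 (in some of its promoters), Calcrl and Apln, which did so less, hold them.
Tie1, chr4:118489800-118490099, minus strand: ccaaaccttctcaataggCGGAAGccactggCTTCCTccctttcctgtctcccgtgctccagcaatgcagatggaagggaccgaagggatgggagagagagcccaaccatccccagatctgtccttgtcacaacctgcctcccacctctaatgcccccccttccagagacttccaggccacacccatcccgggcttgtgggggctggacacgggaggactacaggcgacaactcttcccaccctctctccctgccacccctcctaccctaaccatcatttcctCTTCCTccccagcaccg
Robo4, chr9:37401722-37402021, plus strand: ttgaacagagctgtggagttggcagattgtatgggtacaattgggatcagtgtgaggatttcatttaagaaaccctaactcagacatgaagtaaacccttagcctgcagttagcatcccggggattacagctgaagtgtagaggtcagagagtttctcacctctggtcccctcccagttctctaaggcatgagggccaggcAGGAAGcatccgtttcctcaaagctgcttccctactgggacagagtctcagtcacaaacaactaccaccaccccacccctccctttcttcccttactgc
Cd34, chr1:194938571-194938870, plus strand: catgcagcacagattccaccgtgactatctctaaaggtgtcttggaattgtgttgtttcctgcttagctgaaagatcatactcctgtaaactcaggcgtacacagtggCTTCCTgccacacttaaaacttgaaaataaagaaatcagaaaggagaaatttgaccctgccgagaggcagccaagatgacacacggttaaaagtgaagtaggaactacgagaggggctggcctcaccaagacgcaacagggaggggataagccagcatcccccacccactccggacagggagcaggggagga
Esm1, chr13:113209409-113209708, plus strand: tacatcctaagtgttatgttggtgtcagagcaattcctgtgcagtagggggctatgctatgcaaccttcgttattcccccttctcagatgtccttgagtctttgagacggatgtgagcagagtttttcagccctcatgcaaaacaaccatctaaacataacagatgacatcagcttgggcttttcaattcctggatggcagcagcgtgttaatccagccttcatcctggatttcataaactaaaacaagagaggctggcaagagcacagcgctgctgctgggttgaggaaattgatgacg
The Tie1 window holds 3 matches, those of Robo4 and Cd34 hold 1 each, and that of Esm1 holds none. Over all genes described here, 13 of 23 promoters (12 of 19 genes) hold at least 1 match on either strand, beside 46.5% of the 32851 promoters in the table. AGGAAG alone is held by 35.4% of all promoters and CGGAAG by 16.9%. A match is only a run of letters, and its absence says nothing of the factors.

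The 6 genes taken as pan-endothelial (Pecam1, Tie1, Robo4, Esam, Erg and Cdh5) were detected in every tumor. They were highest on average in MCA-970, and for each of them but Cdh5 tumors of that line overlapped those of the others. Pecam1, an adhesion molecule of endothelial junctions that also occurs on leukocytes and platelets, reached 19.4, 21.2, 26.7 and 40.9 CPM in the MCA-943 tumors and 10.7, 14.2, 18.4 and 32.8 CPM in the MCA-972 tumors. In MCA-969 its lowest, median and highest values were 17.2, 38.8 and 61.2 CPM. In MCA-948 they were 5.82, 23.01 and 113.8 CPM, the widest spread of the 5 lines, with tumor a-R at the top. In MCA-970 they were 20.99, 108.4 and 119 CPM. In MCA-970, 4 tumors thus stood together at 107.6 CPM or more, whereas W-1D (40.3 CPM) and W-R (20.99 CPM) fell among the tumors of the other lines. The levels of Pecam1 overlapped between all lines. Its mean ± SD was 85.0 ± 42.8 CPM in MCA-970 (n = 6) and 19.03 ± 9.71 CPM in MCA-972 (n = 4), a difference of 2.16 on the log2 scale (SE 0.66, adjusted p = 0.00808 by edgeR's quasi-likelihood test with Benjamini-Hochberg adjustment over all tested genes, as for all adjusted p-values here).

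Tie1, an orphan receptor that modulates angiopoietin signaling and is hardly found outside endothelium, showed the same picture. It measured 3.82, 5.19, 5.33 and 11.3 CPM in MCA-943 and 5.98, 8.17, 9.36 and 18.5 CPM in MCA-972. Its lowest, median and highest values were 5.97, 11.6 and 19.3 CPM in MCA-969, 3.18, 9.05 and 33.4 CPM in MCA-948, and 9.20, 34.1 and 37.8 CPM in MCA-970. The highest tumor was again MCA-970, and tumors W-1D and W-R (15.9 and 9.20 CPM) again fell below the other 4. Tie1 was 4.36-fold lower in MCA-943 than in MCA-970 (log2 difference -2.12, SE 0.57, adjusted p = 0.00216), and it was also called lower in MCA-969 and MCA-948 than in MCA-970 and higher in MCA-970 than in MCA-972. A call throughout means an adjusted p under 0.05 together with a log2 difference of at least 1 in size.

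The other pan-endothelial genes were Robo4, a receptor that stabilizes vessels, Esam, a junction molecule, and Erg, the ETS factor. Line means of Robo4 ran from 2.68 ± 2.33 CPM in MCA-943 (n = 4) to 12.96 ± 6.62 CPM in MCA-970 (n = 6). Those of Esam ran from 3.18 ± 2.75 to 18.9 ± 9.90 CPM and those of Erg from 1.71 ± 0.87 to 7.71 ± 3.99 CPM, between the same 2 lines. All 3 were called lower in MCA-943 than in MCA-970, with log2 differences of -2.26, -2.56 and -2.17. The SD within MCA-948 was close to its mean for each of them, for instance 3.80 ± 3.60 CPM for Erg (n = 8).

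**Figure D1:**
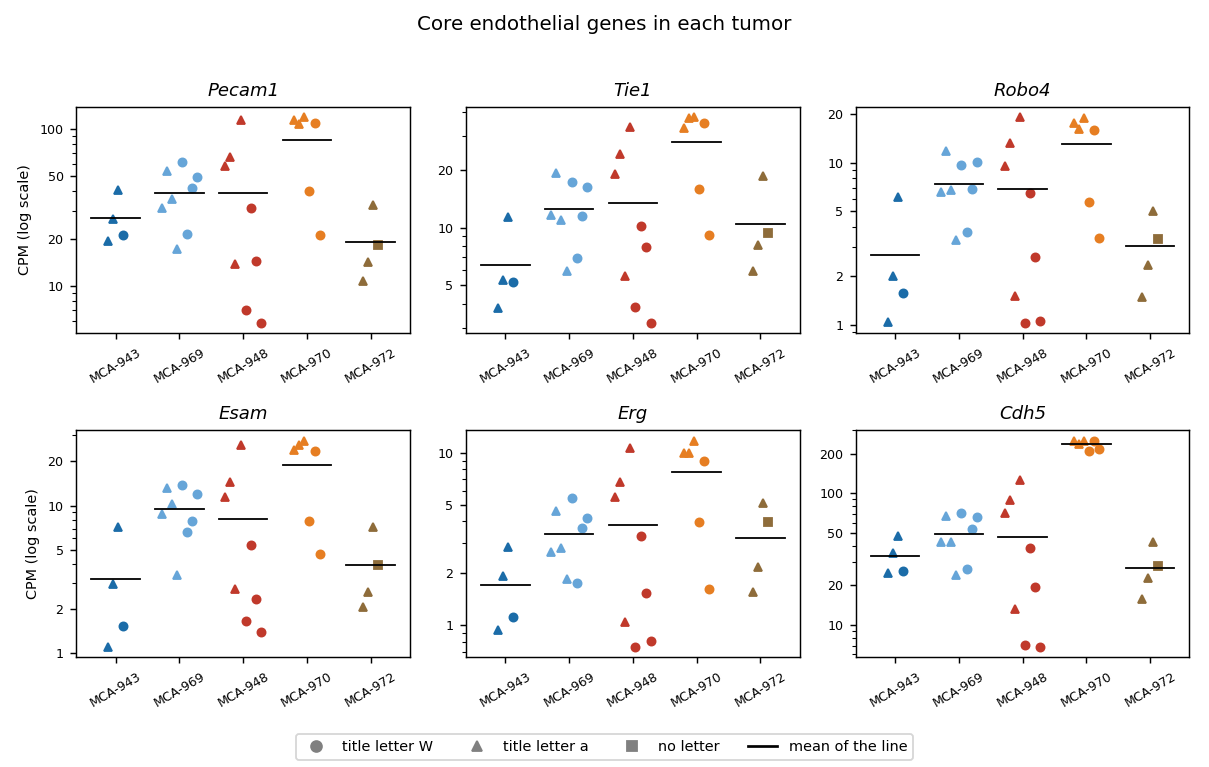
Levels of the pan-endothelial genes Pecam1, Tie1, Robo4, Esam, Erg and Cdh5 in the 30 tumors, in TMM-scaled CPM on a log axis, by line. Each point is 1 tumor (circles, title letter W; triangles, letter a; square, no letter) and each line marks the mean of a tumor line. The MCA-948 tumors spread most, 2 MCA-970 tumors lie apart from the other 4 for each gene but Cdh5, and Cdh5 in MCA-970 (210.7 to 251.6 CPM) lies above every tumor of the other lines.

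Cdh5 departed from this pattern in MCA-970. VE-cadherin is the adhesion molecule of endothelial adherens junctions, and in 4 of the 5 lines its transcript kept pace with Pecam1. It measured 24.8, 25.7, 35.5 and 47.0 CPM in MCA-943 and 15.9, 22.8, 28.0 and 42.4 CPM in MCA-972. From lowest over median to highest, it measured 24.1, 47.98 and 70.9 CPM in MCA-969 and 6.86, 28.95 and 126.2 CPM in MCA-948. In MCA-970, however, they were 210.7, 242.4 and 251.6 CPM, so that all 6 tumors lay above the other 24 and close to each other. The mean of MCA-970 (235.9 ± 18.1 CPM, n = 6) was 4.81-fold that of MCA-969 (49.1 ± 18.1 CPM, n = 8; log2 difference -2.27 for MCA-969 against MCA-970, SE 0.46, adjusted p = 0.000129). MCA-943 and MCA-948 lay under MCA-970 by log2 differences of -2.83 and -2.35, MCA-970 lay 3.11 above MCA-972, and all 3 differences were called as well.

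MCA-970 tumors W-1D and W-R, which were low in Pecam1 and Tie1, were only slightly the lowest of their line in Cdh5. They held 210.7 and 216.8 CPM, against 236.4 to 251.6 CPM in the other 4. The ratio of Cdh5 to Pecam1 was therefore 5.22 and 10.3 in these tumors and at least 2.11 in the other 4, whereas it lay between 0.953 and 1.604 in the 24 tumors of the other lines. When counts were scaled to the sum of the other 5 pan-endothelial genes in place of the whole library, Cdh5 differed over the lines (adjusted p = 0.00650). So did 82.8% of all tested genes, and leaving Cdh5 out of the sum was a setting added after the data were seen. On that scale Cdh5 was lower in MCA-948 than in MCA-970 (log2 -1.83, SE 0.56, adjusted p = 0.00267), lower in MCA-969 than in MCA-970 (log2 -1.68, adjusted p = 0.0231) and higher in MCA-970 than in MCA-972 (log2 1.64, adjusted p = 0.0387), whereas the difference between MCA-943 and MCA-970 did not pass (log2 -1.38, adjusted p = 0.0771). With the run of the library as a covariate, Cdh5 was called between MCA-969 and MCA-970 (log2 -2.27, adjusted p = 0.0230) and between MCA-970 and MCA-972 (log2 3.12, adjusted p = 0.0193). The comparison with MCA-943 and that with MCA-948 did not pass in that fit (adjusted p = 0.0951 and 0.0606). A noncoding gene annotated on the opposite strand of Cdh5 (Gm29682) reached at most 0.0261 CPM in any tumor.

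**Figure D2:**
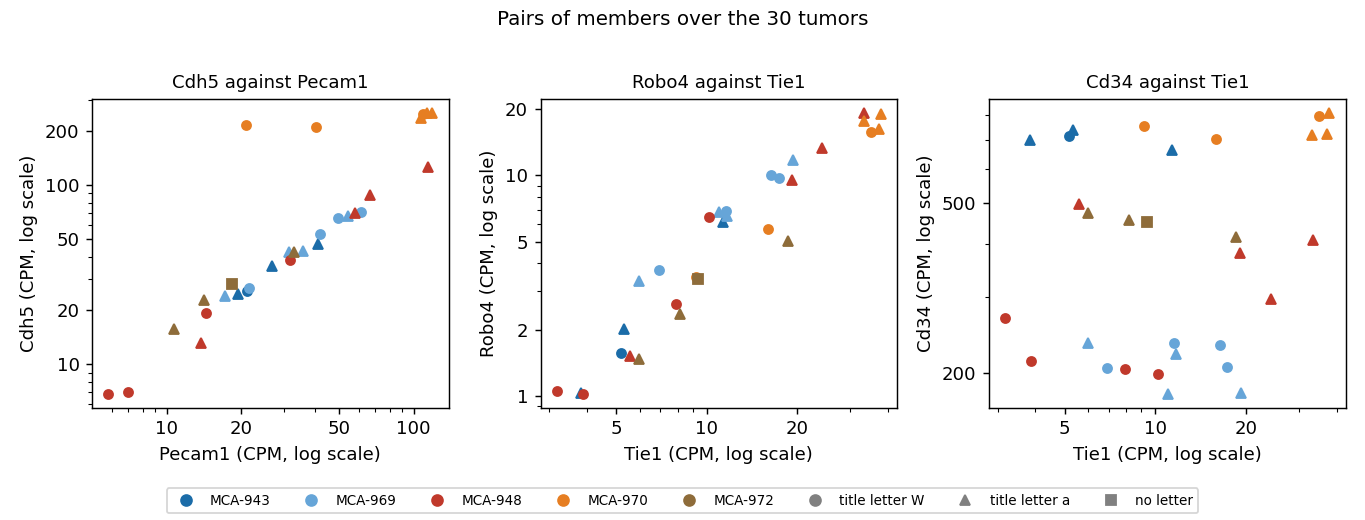
Pairs of endothelial transcripts across the 30 tumors, in CPM on log axes, coloured by line: Cdh5 against Pecam1, Robo4 against Tie1 and Cd34 against Tie1. Robo4 and Tie1 lie along 1 diagonal in all lines, the 6 MCA-970 tumors leave the diagonal of Cdh5 and Pecam1 (ratios of 2.11 to 10.3 against 0.953 to 1.604), and Cd34 lies in a band for each line with little regard to Tie1.

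Within a line, most of the endothelial transcripts rose and fell together from tumor to tumor. This was measured as the Pearson correlation of log2 CPM with Tie1 over the tumors of 1 line, in the 3 lines with 6 or more tumors, and it is given as a description, since the genes compared share their libraries and their depth. The median over the other 35 genes was 0.98 in MCA-948 (8 tumors), 0.885 in MCA-969 (8 tumors) and 0.971 in MCA-970 (6 tumors), beside medians of -0.012, 0.031 and 0.021 over all genes. A correlation over 0.9 was reached by 28, 16 and 27 of the 35 genes in the 3 lines, and by 1.94%, 1.14% and 2.21% of all genes. Across the 3 lines, 24 of 35 had a correlation over 0.8, beside 0.896% of all genes. These 24 were Pecam1, Cdh5, Kdr, Flt1, Flt4, Tek, Eng, Vwf, Emcn, Esam, Cldn5, Plvap, Erg, Fli1, Robo4, Ptprb, Mmrn2, Sox17, Sox18, Rasip1, Gpihbp1, Nos3, Ramp2 and She.

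The remaining 11 were Egfl7, Mmrn1, Sox7, Ecscr, Cd34, Icam2, Esm1, Apln, Aplnr, Calcrl and Clec14a. The lowest values belonged to Cd34, with 0.357, -0.312 and 0.304 in MCA-948, MCA-969 and MCA-970, and to Esm1, with -0.576 in MCA-969. Ecscr stood at 0.55 in MCA-948 and 0.436 in MCA-969, and Clec14a at 0.383 in MCA-970. Ranks gave medians of 0.976, 0.833 and 0.829 (Spearman). Without the 2 tumors farthest from the median of Tie1, the median correlation was 0.977 in MCA-948 (6 tumors left), 0.801 in MCA-969 (6 tumors left) and 0.428 in MCA-970 (4 tumors left). In MCA-970 the relation therefore rests on W-1D and W-R. Measured against Cdh5 in place of Tie1, 28, 14 and 7 of 35 correlations were over 0.9, the low count in MCA-970 being that of the line in which Cdh5 itself hardly varied.

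The VEGF receptors moved with Tie1 within lines and differed from each other in the order of the lines. Kdr, the main signaling receptor of VEGF-A, measured 3.82, 4.17, 4.19 and 13.3 CPM in MCA-943, where tumor a-R stood apart, and 4.23, 6.70, 7.66 and 12.4 CPM in MCA-972. Its lowest, median and highest values were 9.29, 18.9 and 31.9 CPM in MCA-969, 1.79, 12.2 and 48.7 CPM in MCA-948, and 8.43, 42.8 and 47.1 CPM in MCA-970. It was called lower in MCA-943 than in MCA-970 (log2 -2.38, SE 0.73, adjusted p = 0.00598) and MCA-969, and higher in MCA-970 than in MCA-972. Flt1, a high-affinity VEGF receptor that also acts as a trap for the ligand, had its lowest line mean in MCA-972, at 17.1 ± 2.68 CPM (n = 4), and its values there (14.8, 15.9, 16.7 and 20.9 CPM) were the closest of any line. Flt1 in MCA-969, MCA-948 and MCA-970 was 2.70-fold, 2.47-fold and 3.21-fold higher than in MCA-972, and each was called. Flt4, the receptor of VEGF-C and VEGF-D in lymphatic endothelium, was highest in MCA-970 (19.7 ± 8.32 CPM, n = 6) and was called against MCA-943, MCA-969 and MCA-948 but not against MCA-972 (11.2 ± 3.62 CPM, n = 4). Its ratio to the summed CPM of the pan-endothelial genes other than Cdh5 was 0.304 in MCA-972 and 0.0846 in MCA-969, a log2 difference of -1.84 for MCA-969 on that scale (SE 0.61, adjusted p = 0.0216).

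The angiopoietin receptor Tek was at the other extreme, with the smallest range of line means of all 36 genes. Its means were 5.55 ± 1.202, 3.86 ± 1.47, 3.75 ± 3.27, 5.48 ± 3.15 and 7.90 ± 1.78 CPM in MCA-943, MCA-969, MCA-948, MCA-970 and MCA-972, and it was called in no comparison. A test over the 5 lines was missed by Tek (adjusted p = 0.258), by Ptprb, the phosphatase that dephosphorylates Tek (adjusted p = 0.130), and by Sox17 (adjusted p = 0.0538). The other 33 genes differed over the lines by that test, beside 94.1% of all tested genes, so a difference over lines is nothing particular to them. Ptprb was nevertheless called lower in MCA-972 (6.42 ± 2.36 CPM, n = 4) than in MCA-969, MCA-948 and MCA-970. Of these 3 calls, 0 were kept in every fit that left out 1 tumor, and 1 was kept with library run as a covariate. Scaled to the 5 pan-endothelial genes other than Cdh5, Tek did differ over the lines (adjusted p = 0.000178), with mean ratios to their summed CPM of 0.150 and 0.224 in MCA-943 and MCA-972 and 0.0348 to 0.0541 in the other lines.

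Among peptide systems, apelin and its receptor did not run together. Apln, which endothelial tip cells secrete and which other cells also make, had line means that fell from 86.8 ± 12.8 CPM in MCA-943 (n = 4) over 62.8 ± 16.5 in MCA-969 (n = 8), 53.8 ± 12.5 in MCA-948 (n = 8) and 41.6 ± 13.7 in MCA-970 (n = 6) to 27.3 ± 9.24 CPM in MCA-972 (n = 4). Neighbours in this order overlapped. It was called higher in MCA-943 than in MCA-970 and MCA-972, and higher in MCA-969 than in MCA-972 (log2 1.201, SE 0.24, adjusted p = 0.000112). Aplnr was instead highest in MCA-970 (8.88 ± 5.30 CPM, n = 6) and was called there against MCA-943 and MCA-972. Calcrl and Ramp2 together form a receptor of adrenomedullin, a peptide that tightens endothelial barriers and shapes lymphatic vessels. Calcrl was highest in MCA-943, where its 4 tumors measured 22.2, 22.9, 23.9 and 27.0 CPM, and was called against the 3 sensitive lines but not against MCA-969 (4.58, 15.2 and 22.7 CPM as lowest, median and highest values). In MCA-972 Calcrl was held within 8.32 to 9.17 CPM. Ramp2 was highest in MCA-970 and MCA-943 (7.68 ± 3.43, n = 6, and 7.02 ± 0.75 CPM, n = 4) and lowest in MCA-972 (2.00 ± 0.78 CPM, n = 4).

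The transcription factors divided in the same way. Sox18 and Sox17 varied with the other endothelial transcripts. Sox18 was called higher in MCA-970 than in MCA-972 (8.61 ± 4.60 against 1.64 ± 1.01 CPM, n = 6 and 4) and than in MCA-969, and Sox17, the lowest of the 36 genes per kilobase of exon, stayed at 3.37 CPM or less in every tumor. Sox7 differed most between lines of all 36 genes, with a 14.1-fold range of line means. The MCA-943 tumors held 0.508, 0.691, 0.945 and 3.21 CPM of Sox7, and the MCA-972 tumors 11.3, 11.98, 12.5 and 13.01 CPM. The lowest, median and highest tumors held 12.4, 16.3 and 31.9 CPM in MCA-969, 0.473, 2.28 and 16.04 CPM in MCA-948 and 9.53, 19.7 and 29.4 CPM in MCA-970. No MCA-943 tumor reached the lowest tumor of MCA-969, MCA-970 or MCA-972. Sox7 was 13.5-fold lower in MCA-943 than in MCA-969 (log2 -3.76, SE 0.74, adjusted p = 7.24e-05). Without MCA-943 a-R, which held the most Sox7 of that line, this difference was -4.71 on the log2 scale. Of its 7 calls none passed with library run as a covariate. Fli1, which leukocytes also express, was highest in MCA-943 (6.76 ± 1.69 CPM, n = 4) and called there against MCA-969, MCA-948 and MCA-972, whereas Erg was lowest in MCA-943.

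Surface proteins gave the widest contrasts between steady and variable transcripts. Cd34, a sialomucin of capillary endothelium and of fibroblastic cells, had the highest level per kilobase of exon, with a mean over line means of 66.5 CPM per kb, against 18.6 for Cdh5 and 0.236 for Sox17. It measured 664, 700.2, 716 and 739 CPM in MCA-943 and 415, 449.7, 456 and 474 CPM in MCA-972. Its lowest, median and highest values were 178.5, 213.6 and 234.8 CPM in MCA-969, 199, 283 and 497 CPM in MCA-948 and 704, 739.8 and 809 CPM in MCA-970. MCA-943 and MCA-970 overlapped and lay above all tumors of the other lines, and the MCA-970 tumors W-1D and W-R (704 and 754 CPM) did not stand apart. Cd34 was 3.33-fold higher in MCA-943 than in MCA-969 (log2 1.74, SE 0.16, adjusted p = 2.17e-10).

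Ecscr, a small transmembrane protein of endothelial cells that modulates VEGF signaling and migration, sorted the tumors by line more sharply than any other gene of the set. Its values were 84.0, 85.9, 93.4 and 96.0 CPM in MCA-943 and 4.94, 6.05, 6.52 and 8.88 CPM in MCA-972. They were 12.2, 14.6 and 28.7 CPM in MCA-969, 29.6, 37.8 and 39.8 CPM in MCA-948 and 32.4, 42.8 and 47.7 CPM in MCA-970 as lowest, median and highest. All tumors of MCA-943 lay above and all of MCA-972 below the tumors of every other line, and only MCA-948 and MCA-970 overlapped and were not called against each other. In MCA-948 the tumors differed 19.6-fold in Pecam1 and 1.34-fold in Ecscr. MCA-943 exceeded MCA-972 by 13.6-fold (log2 3.77, SE 0.22, adjusted p = 1.98e-14). Of the 36 genes, only Cdh5 in MCA-970 and Ecscr in MCA-943 had a top line whose tumors all lay above every other tumor. The share of all tested genes with such a top line was not computed, so this count cannot be judged against it.

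Eng and Clec14a were steady in some lines and variable in others. Endoglin, a co-receptor of BMP9 and TGF-β on endothelium and mesenchymal cells, measured 119.5, 130.1, 132.2 and 144.3 CPM in MCA-943 and 45.0, 50.4, 51.0 and 55.9 CPM in MCA-972. The lowest, median and highest tumors held 92.3, 116.3 and 131.3 CPM in MCA-970, 12.2, 25.9 and 41.2 CPM in MCA-969 and 4.13, 12.2 and 63.1 CPM in MCA-948. In the first 3 of these lines the tumors differed by less than 1.5-fold, and in MCA-948 they spanned a 15.3-fold range. Eng was 6.52-fold higher in MCA-943 than in MCA-948 (log2 2.71, SE 0.45, adjusted p = 5.59e-06). Clec14a, an endothelial lectin-like receptor that binds Mmrn2, was at 8.37, 10.1, 12.2 and 13.1 CPM in MCA-943, 9.07, 10.4, 10.8 and 14.8 CPM in MCA-972 and 6.22 to 10.9 CPM in MCA-970. In MCA-969 and MCA-948 it reached at most 4.68 and 3.41 CPM, so that no tumor of these lines overlapped the other 3. Clec14a was 8.60-fold lower in MCA-948 than in MCA-972 (log2 -3.104, SE 0.49, adjusted p = 3.02e-06).

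**Figure D3:**
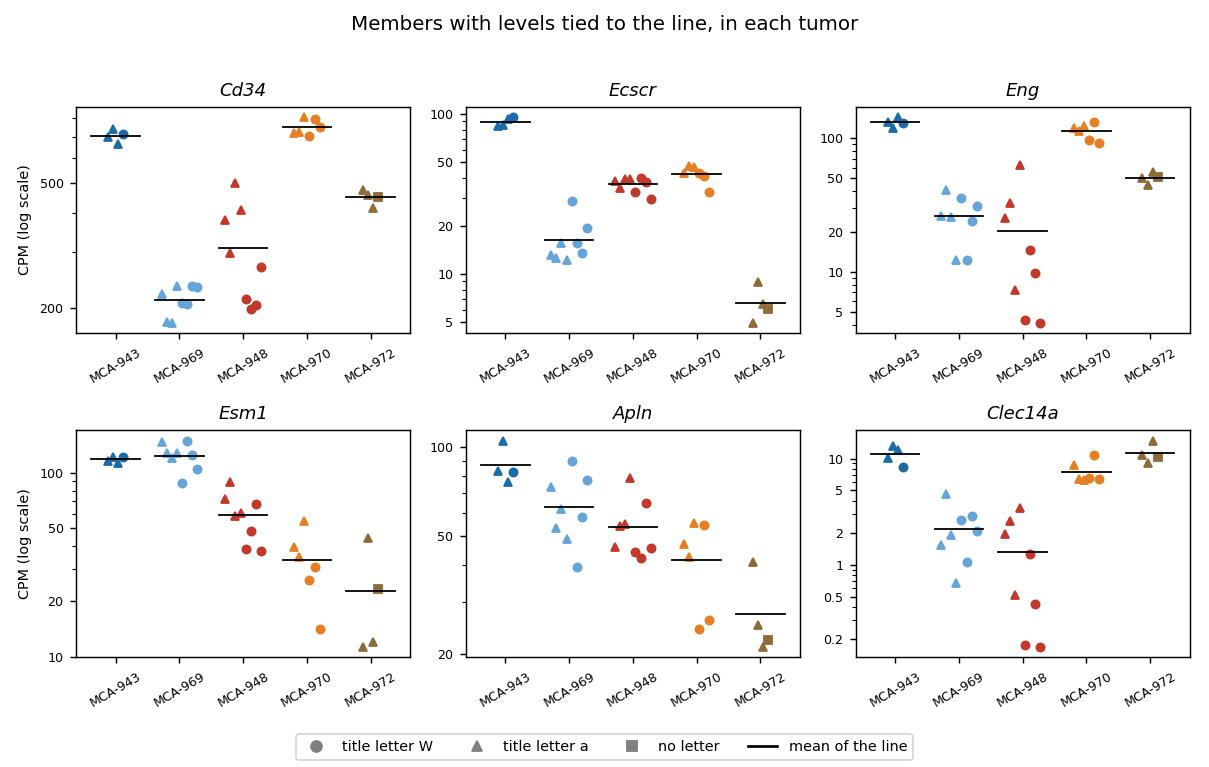
Levels of Cd34, Ecscr, Eng, Esm1, Apln and Clec14a in the 30 tumors, in TMM-scaled CPM on a log axis, by line, drawn as for the pan-endothelial genes (circles, letter W; triangles, letter a; square, no letter; lines, means). The points of a line lie close together for Cd34 and Ecscr, for Eng and Clec14a they do so in MCA-943, MCA-970 and MCA-972 but not in MCA-948, and Esm1 and Apln are highest in MCA-943 and MCA-969.

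The other surface and junction genes varied with the pan-endothelial genes and were highest in MCA-970. Plvap, which forms the diaphragms of fenestrae and caveolae, ran from 7.49 ± 5.47 CPM in MCA-943 (n = 4) to 54.3 ± 26.6 CPM in MCA-970 (n = 6), a 7.20-fold difference (log2 -2.85, SE 0.70, adjusted p = 0.000975), and Emcn, an endothelial sialomucin of capillaries and veins, from 2.46 ± 1.77 to 17.4 ± 9.94 CPM between the same lines. Gpihbp1, which carries lipoprotein lipase to the capillary lumen, and Icam2, a ligand of leukocyte integrins, were each called between MCA-970 and 3 or 4 other lines. Cldn5, the claudin of tight junctions, had nearly equal means in MCA-943, MCA-969, MCA-948 and MCA-972 (3.15 to 3.30 CPM) and was called in MCA-970 (7.97 ± 3.64 CPM, n = 6) against the first 3 of these. With library run as a covariate the difference between MCA-943 and MCA-970 changed sign, from -1.33 to 0.29 on the log2 scale (adjusted p = 0.799).

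Secreted proteins differed more among themselves. Vwf, the adhesive glycoprotein of Weibel-Palade bodies that platelets also carry, was highest in MCA-969 (39.9 ± 20.2 CPM, n = 8) and lowest in MCA-943 (7.36 ± 6.26 CPM, n = 4), and the difference was 5.38-fold (log2 -2.43, SE 0.80, adjusted p = 0.00985). In MCA-948 its mean of 31.5 CPM includes tumor a-R at 124.7 CPM, with the next tumor at 45.7 CPM. Mmrn1, of lymphatic endothelium and platelets, was lowest in MCA-969 (2.49 ± 1.28 CPM, n = 8) and called lower there than in all 3 sensitive lines, with a log2 difference of -2.55 from MCA-970 (SE 0.46, adjusted p = 2.52e-05). Mmrn2, the endothelial relative of Mmrn1 in the vessel matrix, instead followed the pan-endothelial genes, with means of 3.41 to 14.8 CPM. Egfl7, a matrix-bound guide of vessel sprouts, was higher in MCA-970 (22.8 ± 7.13 CPM, n = 6) than in MCA-943, MCA-948 and MCA-972 and higher in MCA-969 than in MCA-943. Among the remaining genes, Nos3 (endothelial nitric oxide synthase), Rasip1 (a regulator of vessel lumen formation) and She (an SH2 domain adaptor) had their highest line means in MCA-970, at 8.49, 8.14 and 4.74 CPM, and were called there against MCA-943 and MCA-972.

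Esm1, or endocan, a proteoglycan that endothelial tip cells secrete in response to VEGF and that some tumor cells also make, ran against this order. It measured 112.8, 116.1, 122 and 122.7 CPM in MCA-943 and 11.4, 12.1, 23.3 and 44.5 CPM in MCA-972. Lowest, median and highest values were 88.1, 126.5 and 150 CPM in MCA-969, 37.8, 59.6 and 89.7 CPM in MCA-948 and 14.1, 32.8 and 55.1 CPM in MCA-970. Of the 18 tumors of sensitive lines, 1 MCA-948 tumor (a-2D, 89.7 CPM) exceeded the lowest MCA-969 tumor (W-1D, 88.1 CPM), and no other values of the sensitive and non-sensitive lines overlapped. Alone among the 36 genes, Esm1 was called in each of the 6 pairings of MCA-943 or MCA-969 with a sensitive line, always as higher in the non-sensitive one. Of all tested genes, 0.652% were so called as higher in the non-sensitive lines and 0.225% as lower.

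The size of the Esm1 difference depended on the line. It was 2.44 on the log2 scale between MCA-969 and MCA-972 (SE 0.33, adjusted p = 4.74e-07) and 1.82 between MCA-943 and MCA-970. Between MCA-943 and MCA-948 it was 1.00 (SE 0.28, adjusted p = 0.00288) and between MCA-969 and MCA-948 1.07 (SE 0.24, adjusted p = 0.000348), at the edge of the fold threshold, so that the call in all 6 was lost in 18 of 30 fits that each left out 1 tumor. Among the sensitive lines Esm1 was itself called higher in MCA-948 than in MCA-972 (log2 1.37). The line means of Apln and Calcrl were also higher in both non-sensitive than in all 3 sensitive lines, as were those of 9.24% of tested genes, and the line means of Flt4, Cldn5 and Mmrn1 were lower, as were those of 7.56%. None of these 5 was called in all 6 comparisons. The gene Gzmk, annotated over Esm1 on the opposite strand, reached at most 0.169 CPM in any tumor.

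Between pairs of lines, the endothelial transcripts were called most often in comparisons with MCA-970. Of the 36 genes, 24 were lower and 4 higher in MCA-943 than in MCA-970, where 14.8% and 12.6% of tested genes were called lower and higher. In MCA-969 against MCA-970, 14 were lower and 1 (Esm1) higher, beside 10.7% and 10.7%. In MCA-948 against MCA-970, 15 were lower and 0 higher, beside 19.8% and 9.64%. In MCA-970 against MCA-972, 21 were higher and 0 lower, beside 8.56% and 9.01%. For 26 of the 36 genes MCA-970 had the highest line mean, and the share over all genes was not computed. The median log2 difference over the 36 genes was -1.79, -0.99, -1.04 and 1.66 in these 4 comparisons, while that over all genes was within 0.05 of 0. These comparisons share the MCA-970 tumors. Without W-1D and W-R, a setting added after the data were seen, the counts of called genes were 28, 24, 24 and 25 in place of 28, 15, 15 and 21. The shares of all tested genes called without these tumors were not computed, so the rise cannot be judged against them.

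Comparisons without MCA-970 gave fewer calls, and in both directions. In MCA-943 against MCA-948, 8 genes were higher (Eng, Fli1, Ecscr, Cd34, Esm1, Ramp2, Calcrl and Clec14a) and 3 lower (Vwf, Plvap and Sox7), beside 17.7% and 11.3% of tested genes. In MCA-943 against MCA-972, 7 were higher and 1 (Sox7) lower, beside 12.2% and 13.4%. In MCA-943 against MCA-969, 5 were higher (Eng, Fli1, Ecscr, Cd34 and Clec14a) and 9 lower, beside 12.1% and 14.9%. In MCA-969 against MCA-972, 7 were higher and 3 lower (Mmrn1, Cd34 and Clec14a), beside 10.3% and 10.3%. MCA-948 against MCA-972 gave 4 higher and 3 lower, beside 8.27% and 18.5%. The smallest number was found between MCA-969 and MCA-948, with 2 higher (Sox7 and Esm1) and 2 lower (Mmrn1 and Ecscr), beside 16.8% and 3.91%. Leukocyte markers moved in several comparisons of lines, and their part in the differences was not tested. Of 20, 17 were lower and 1 higher in MCA-969 than in MCA-970, beside 10.7% and 10.7% of tested genes. In MCA-943 against MCA-969, 14 of 20 were higher and 1 lower, beside 12.1% and 14.9%.

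**Figure D4:**
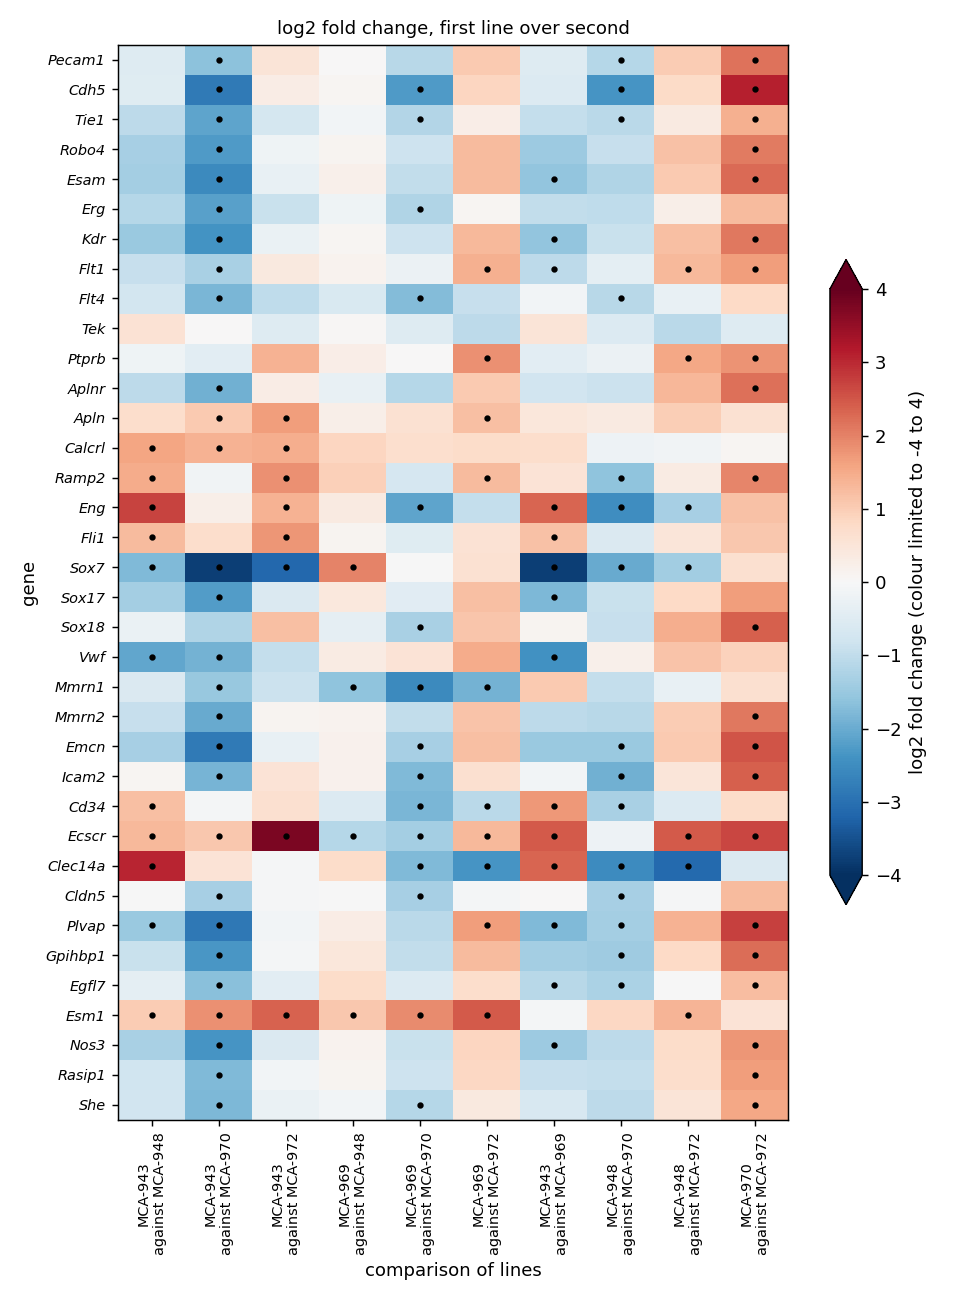
Log2 differences of the 36 endothelial genes in the 10 comparisons of lines, the first line over the second, with colours limited at 4 in either direction and a dot where the difference was called. Columns with MCA-970 are of 1 colour for most genes (24, 14 and 15 genes called lower in the other line, 21 called higher than in MCA-972), while Eng, Ecscr, Cd34, Esm1, Apln, Calcrl and Clec14a follow patterns of their own.

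Of these 133 calls, 44 were kept when the run of the library was added as a covariate. The number called fell from 28 to 3 in MCA-943 against MCA-970, while the share of all tested genes went from 27.3% to 22.4%. In MCA-969, MCA-948 and MCA-972 compared with MCA-970 the counts went from 15 to 6, 15 to 2 and 21 to 5, and the shares of all genes from 21.4% to 19.7%, 29.4% to 23.3% and 17.6% to 11.9%. The 36 genes did not lose calls evenly. At least 1 call was kept by 14 genes, led by Ecscr (7 of 9), Eng (5 of 6), Clec14a (5 of 6), Esm1 (5 of 7), Cd34 (4 of 5) and Apln (3 of 3). For 21 genes every call was lost, among them Pecam1, Tie1, Kdr, Robo4, Emcn, Esam and Sox7. The 24 genes that followed Tie1 in all 3 lines kept 16 of 75 calls and the 11 others kept 28 of 54. Both groups were formed from the spread of these same tumors, so this contrast is a description and no test. With the run as a covariate, 12 of the 36 differed over the lines, beside 87.8% of all genes. Since run and line overlap, the fit leaves few tumors to compare within a run: within the run that holds both, MCA-969 and MCA-972 (6 and 4 tumors) gave 20 calls in place of 10, whereas the run of the MCA-970 tumors gave 7 calls between MCA-969 and MCA-970 (2 and 6 tumors) and 1 between MCA-948 and MCA-970 (2 and 6 tumors). The shares of all tested genes called within a run were not computed, so these counts cannot be judged against them. Leaving out each tumor in turn, 87 of 133 calls were kept in every fit, including all of those for Ecscr, Clec14a, Cd34, Cdh5 and Egfl7. Each call of Ptprb, Mmrn2, Sox17, Aplnr and She was lost in at least 1 of these fits.

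Scaling the counts to the sum of the 6 pan-endothelial genes asks whether a transcript kept its proportion to them. By that measure 16 of the other 30 genes differed over the lines, as did 98.5% of all tested genes. With Cdh5 left out of the sum, 13 of 30 did, beside 82.8%: Tek, Eng, Vwf, Fli1, Mmrn1, Sox7, Ecscr, Cd34, Esm1, Apln, Ramp2, Calcrl and Clec14a. That sum was added after the data were seen. Clec14a (adjusted p = 1.08e-13), Eng (4.34e-09) and Ecscr (1.29e-08) differed most. The ratio of Clec14a to the summed CPM of these 5 genes was 0.293 and 0.321 in MCA-943 and MCA-972, 0.0293 and 0.0175 in MCA-969 and MCA-948 and 0.0682 in MCA-970. Mmrn2 kept a ratio of 0.0820 to 0.106 in all lines (adjusted p = 0.965), and Rasip1 (0.974), Aplnr (0.945) and She (0.912) also gave high adjusted p-values. Kdr, Emcn, Plvap, Cldn5, Egfl7, Sox17, Sox18, Gpihbp1, Icam2 and Nos3 did not pass either, nor did Flt1, Flt4 and Ptprb with this sum.

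The spread of the transcripts within a line was widest in MCA-948. The median coefficient of variation (SD over mean) of the 36 genes was 0.952 there, against 0.428 in MCA-943, 0.39 in MCA-969, 0.484 in MCA-970 and 0.383 in MCA-972. It was under 0.2 for Ecscr alone in MCA-948, for Cdh5, Eng, Ecscr and Cd34 in MCA-970, for Flt1, Eng, Sox7, Cd34 and Calcrl in MCA-972, for Egfl7, Cd34, Esm1 and Ramp2 in MCA-969, and for 10 genes in MCA-943. In MCA-943 these were Eng, Cldn5, Ptprb, Ecscr, Cd34, Esm1, Apln, Ramp2, Calcrl and Clec14a.

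The title letters W and a divide 26 tumors of MCA-943, MCA-969, MCA-948 and MCA-970, and their meaning is not stated. In a fit of line and letter, 35 of the 36 transcripts were lower in W than in a, Ecscr being the exception at 0.08 on the log2 scale, and the median difference was -0.81, beside -0.01 over all genes. Under an unadjusted p of 0.05 were 22 of the 36, beside 7.35% of all genes. None passed after adjustment (edgeR 0 of 36, DESeq2 0 of 36 with 24 under an unadjusted p of 0.05), beside 0.272% of all genes. The lowest adjusted p was 0.316, for Esm1 (log2 -0.43, SE 0.13). With library run as a covariate, 36 were lower in W, with a median of -0.746 and a lowest adjusted p of 0.143 by edgeR. In that fit 21 were under an unadjusted p of 0.05, beside 15.1% of all genes. Since these transcripts move together, they are no separate evidence.

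The letters did not differ alike in all lines. Mean levels were lower in W for 36 of 36 genes in MCA-948 (4 W and 4 a tumors, median ratio 0.259) and for 34 of 36 in MCA-970 (3 and 3, median ratio 0.558), but for 11 of 36 in MCA-969 (4 and 4, median ratio 1.09). In MCA-943, with 1 W and 3 a tumors, the number was 28 of 36. The shares of all genes lower in W within each line were not computed. Letter and run overlap within 2 of these lines. In MCA-948 all 4 W tumors lie in the run of the MCA-943 tumors, while 2 of the 4 a tumors (a-2G and a-R) lie in that of the MCA-970 tumors. In MCA-969 all 4 a tumors lie in the run of the MCA-972 tumors, while 2 of the 4 W tumors lie in that of the MCA-970 tumors. By index number the other W tumors of MCA-969 (W-2G and WR) directly follow the MCA-970 run, apart from the a tumors, so the overlap may be fuller. Pecam1 averaged 63.0 CPM in a and 14.7 CPM in W tumors of MCA-948, with values of 13.8 to 113.8 and 5.82 to 31.5 CPM that overlapped. In MCA-970 the difference rests on W-1D and W-R, since the third W tumor (W-2D) held 109.3 CPM of Pecam1, within the 107.6 to 119 CPM of the a tumors. A difference between lines in the letter effect was under an unadjusted p of 0.05 for 9 genes, beside 10.3% of all genes, and passed for none after adjustment with edgeR, beside 0.0181% of all genes. With DESeq2 it passed for 1 gene, Cd34 (adjusted p = 0.000287; 0.118 with edgeR). Cd34 was the only gene of MCA-948 whose W values (199 to 269 CPM) all lay under its a values (298 to 497 CPM), whereas in MCA-970 its W and a means were 751 and 752 CPM.

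**Figure D5:**
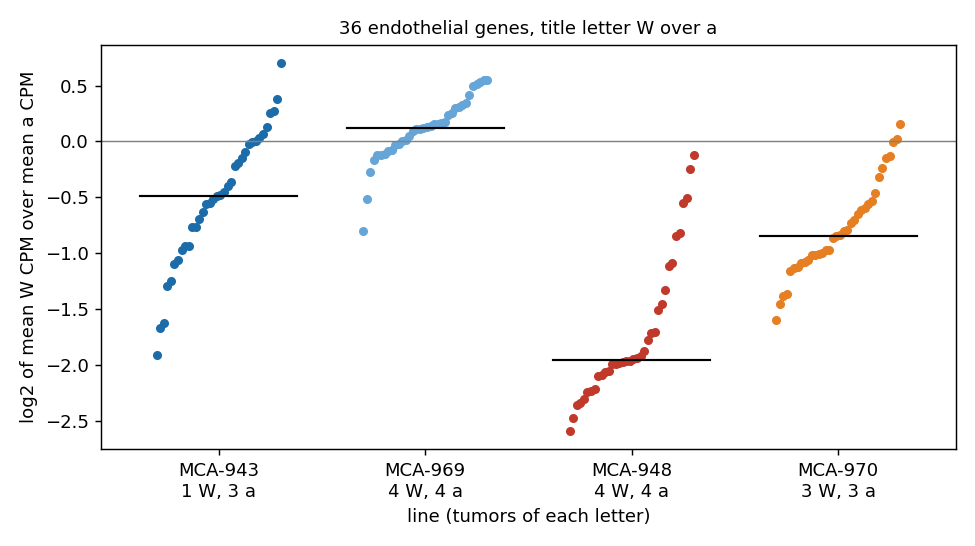
Log2 ratio of the mean of W tumors to the mean of a tumors for each of the 36 endothelial genes (points) in MCA-943, MCA-969, MCA-948 and MCA-970, with a bar at the median. Nearly all points lie under 0 in MCA-948 (36 of 36) and MCA-970 (34 of 36), while in MCA-969 only 11 of 36 do; MCA-943 has 1 W tumor.

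Further endothelial genes outside the set showed the same low level in MCA-943 against MCA-970 and the same high level in MCA-970 against MCA-972. Of a list of 50, 46 differed over the lines, beside 94.1% of all tested genes. In MCA-943 against MCA-970, 27 were called lower and 4 higher, beside 14.8% and 12.6% of tested genes. In MCA-970 against MCA-972, 19 were higher and 2 lower, beside 8.56% and 9.01%. Their median log2 differences in these comparisons were -1.34 and 0.98. Their median correlation with Tie1 was 0.93 in MCA-948, 0.84 in MCA-969 and 0.904 in MCA-970. The genes with the largest called differences were these. Acvrl1, the BMP9 receptor kinase, was 4.93 higher on the log2 scale in MCA-943 than in MCA-948 (SE 0.45, adjusted p = 1.35e-10), and Hey2, a Notch target, was lower in MCA-943 than in MCA-972 (log2 -4.86). Sele, the endothelial selectin, was lower in MCA-943 than in MCA-969 (log2 -4.55), and Cav1, the coat protein of caveolae, was lower in MCA-969 than in MCA-948 (log2 -4.76). Cav1 reached a mean of 12060 CPM in MCA-948 against 445 to 1027 CPM in the other lines. These genes did not all follow Tie1 within MCA-948, MCA-969 and MCA-970. Correlations were 0.969, 0.94 and 0.99 for Acvrl1 and 0.774, 0.98 and -0.374 for Hey2. They were 0.819, 0.039 and 0.147 for Sele and -0.85, 0.483 and -0.173 for Cav1.

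Ligands of the receptors did not share 1 pattern. Of 12 listed, 9 were tested and all 9 differed over the lines, beside 94.1% of all tested genes. Vegfa, the ligand of Kdr and Flt1, had line means of 125.8 ± 17.9 CPM in MCA-943, 261 ± 127.7 in MCA-969, 267 ± 96.7 in MCA-948, 498 ± 65.0 in MCA-970 and 278 ± 44.8 CPM in MCA-972. Angpt2, the angiopoietin that endothelial cells themselves release, also had its highest mean in MCA-970 (5.58, 17.3, 20.3, 26.1 and 8.65 CPM in the same order of lines) and correlated with Tie1 at 0.933, 0.888 and 0.951 in MCA-948, MCA-969 and MCA-970. Angpt1, the activating ligand of Tek, was highest in MCA-943, at 54.4 CPM, and 2.42 higher there than in MCA-969 on the log2 scale (SE 0.20, adjusted p = 1.69e-11), as was Vegfc, by 2.42 (SE 0.13).

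Markers of other cells moved with the endothelial transcripts to different degrees. Of 10 pericyte genes, 8 were called higher and 0 lower in MCA-970 than in MCA-972, beside 8.56% and 9.01% of tested genes. In MCA-943 against MCA-970, 7 were lower and 1 higher, beside 14.8% and 12.6%. Calls of the marker genes with library run as a covariate were not computed. Rgs5 stood at 47.0 ± 20.9 CPM in MCA-970 (n = 6) and 1.87 ± 1.08 CPM in MCA-972 (n = 4). Cspg4 instead averaged 179.1 CPM in MCA-943 and 69.4 CPM in MCA-970, and Pdgfrb 482.6 and 489.3 CPM. The median correlation of the 10 genes with Tie1 was 0.874, 0.821 and 0.898 in MCA-948, MCA-969 and MCA-970, and the lowest was -0.437, 0.028 and 0.251. Among 6 lymphatic endothelial genes, 5 were lower in MCA-969 than in MCA-970, beside 10.7% of tested genes. Prox1, the factor that defines lymphatic identity, stood at 0.585 ± 0.333 against 3.74 ± 1.69 CPM there (n = 8 and 6). Leukocyte genes had negative median correlations with Tie1, at -0.591, -0.21 and -0.822 in the same order of lines. Single genes ran from -0.744 to 0.54, -0.593 to 0.49 and -0.923 to 0.8. Their sum ranged from 25.7 to 418 CPM, and in MCA-970 it was high in W-1D and W-R. Correlations in MCA-970 given here, for the further endothelial genes and for Angpt2 include these tumors, and values without them were not computed for these genes. For the other lists the summed levels over tumors were 2.34 to 9.37 CPM for platelets, 38.3 to 2870 CPM for erythroid cells, 1.10 to 9.25 CPM for keratinocytes, 3.25 to 16.9 CPM for skeletal muscle, 1.12 to 31.98 CPM for adipocytes and 1.44 to 17.9 CPM for Schwann cells. None of the 5 erythroid genes differed over the lines. The part of these cells in the endothelial values was not tested.

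For 13 of the 36 genes another annotated gene overlaps the locus, and whether counting used the strand is not given. The neighbours with levels that could matter were Fpgs over Eng (line means of 20.2 to 33.2 CPM), Agpat2 over Egfl7 (12.8 to 23.6 CPM), Gtpbp3 over Plvap (15.5 to 24.01 CPM) and Atg9b over Nos3 (1.41 to 25.4 CPM). In MCA-948 and MCA-969 the mean of Fpgs (33.2 and 32.5 CPM) was above that of Eng. Vps25 overlaps Ramp2 on the same strand and had line means of 0.254 to 0.474 CPM. How reads shared by both genes were counted is not given. Values of Eng, Egfl7, Plvap, Nos3 and Ramp2 are therefore less certain than those of Pecam1, Tie1 or Robo4, over which no gene is annotated.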

How the data were processed

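The deposited table holds the raw counts the authors made per gene, without normalization, for 48440 genes in 30 tumors. The submitters' processing notes name STAR 2.5.3a, Picard, featureCounts 1.5.2 and the build GRCm38, and the column names point to reads counted once per unique molecular identifier. The strand setting and the annotation release are not given in the sources used here. Genes were named with GENCODE M21 (48058 of 48440). The members and all lists were chosen with earlier results of these data known.

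Counts were normalized by TMM, filtered with filterByExpr by line and fitted with edgeR 4.0.16 (robust quasi-likelihood, R 4.3.3, limma 3.58.1) with the line as factor over all 30 tumors. P-values were adjusted by Benjamini-Hochberg over all 16862 genes, or 16557 for the title letters. A call needs an adjusted p under 0.05 and a log2 difference of at least 1, except for the tests over the 5 lines, of the letters and relative to the pan-endothelial genes, which need the adjusted p alone. Correlations used log2 CPM with a prior count of 2. Alternatives were DESeq2 1.42.0, its size factors, no filter, no fold threshold, library run, title letter, a replicate block, fits within a run and leaving out each tumor. The code was tested on simulated data. Values by tumor are given for the pan-endothelial genes, the receptors and, by role, the genes with the widest and narrowest range of line means. No pair of tumors within a line was a duplicate: chi-square per degree of freedom was at least 13.3 in 83 pairs.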

Additional observations from a re-analysis of the deposited data

Results flagged for a closer look

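Within groups of 4 to 10 tumors, 15 of 180 combinations of a gene and a line had 1 tumor far from the rest by Dixon's criterion. Chance gives about 1 in 20, and since these transcripts move together the combinations are not independent. In MCA-943, tumor a-R was the highest for Kdr (13.25 CPM, next 4.194), Plvap (15.57, next 5.558), Egfl7 (10.78, next 6.473), Mmrn2 (7.102, next 2.721), Sox7 (3.208, next 0.9449), Rasip1 (4.457, next 1.89), Nos3 (3.477, next 1.247) and She (2.4, next 1.02). In MCA-948, tumor a-R was the highest for Vwf (124.7 CPM, next 45.65), Cldn5 (11.59, next 3.534), Plvap (72.69, next 30.99) and Gpihbp1 (21.41, next 5.118). In MCA-972, tumor a-R was the highest for Sox17 (1.281 CPM, next 0.4952) and Gpihbp1 (5.262, next 2.201). In MCA-969, tumor W-1D was the highest for Ecscr (28.68 CPM, next 19.42).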

How the results depend on the processing

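Of 133 calls between lines, 1 changed sign under an alternative, Cldn5 in MCA-943 against MCA-970, at 0.29 on the log2 scale with library run as a covariate (adjusted p = 0.799, -1.33 without it). Of 848 recomputed values, 760 kept their side of the threshold or, for counts, stayed within 1.5 times. Library run as a covariate moved most: the genes called fell to 3 for MCA-943 against MCA-970, 1 between MCA-969 and MCA-948, 6 between MCA-969 and MCA-970, 5 for MCA-943 against MCA-969, 2 for MCA-948 against MCA-970, 3 for MCA-948 against MCA-972 and 5 for MCA-970 against MCA-972, and 12 genes differed over the 5 lines, while 11.9% to 29.8% of all tested genes were called in these fits. Within a run the counts were 20 between MCA-969 and MCA-972, 0 between MCA-969 and MCA-948, 7 between MCA-969 and MCA-970, 1 between MCA-948 and MCA-970 and 7 between MCA-943 and MCA-948, from fewer tumors. The shares of all tested genes in the fits within a run were not computed.

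The Esm1 call in all 6 comparisons became 0 of 36 genes with DESeq2 (log2 0.98 between MCA-943 and MCA-948), its size factors (0.98), no filter on low counts (0.97), the title letter (0.93) and the library run (0.997 between MCA-969 and MCA-948, adjusted p = 0.142). Without a filter, MCA-943 against MCA-969 gave 9 calls. With no fold threshold, MCA-969 against MCA-948 gave 8. Without MCA-970 W-1D and W-R, a setting added after the data were seen, MCA-969 and MCA-948 against MCA-970 gave 24 each. The shares of all tested genes in that setting were not computed. For the letter effect between lines, DESeq2 called 1 gene.

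Title letter and code do not pair the tumors: over 29 pairs the correlation of deviations had a median of 0.025 (-0.43 to 0.411). As a replicate block they gave 3 calls between MCA-969 and MCA-972, 24 for MCA-948 against MCA-970, 4 for MCA-948 against MCA-972 and 8 for MCA-970 against MCA-972, keeping 97 of 133 calls.

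Leaving out 1 tumor at a time, counts ranged from 7 to 18 (MCA-943 against MCA-948), 19 to 28 (MCA-943 against MCA-970), 7 to 8 (MCA-943 against MCA-972), 3 to 8 (MCA-969 against MCA-948), 11 to 18 (MCA-969 against MCA-970), 7 to 11 (MCA-969 against MCA-972), 8 to 19 (MCA-943 against MCA-969), 12 to 25 (MCA-948 against MCA-970), 5 to 9 (MCA-948 against MCA-972) and 12 to 25 (MCA-970 against MCA-972). Genes differing over the lines ranged from 28 to 34, those called in all 6 comparisons from 0 to 1, those relative to the pan-endothelial genes from 16 to 17, those by letter stayed at 0, and those by letter and line ranged from 0 to 1. The count for MCA-943 against MCA-948 was 7 without MCA-943 W-2G, 18 without MCA-943 a-R and 17 without MCA-948 W-2G. For MCA-943 against MCA-969 it was 9 without MCA-969 WR, a-1G or W-1D and 8 without MCA-943 W-2G, a-1D or a-1G. It was 12 for MCA-970 against MCA-972 without MCA-972 a-1, 8 for MCA-969 against MCA-948 without MCA-948 a-R, and 25 and 23 for MCA-948 against MCA-970 without MCA-948 a-R and a-2D. Without MCA-948 a-2D, 1 gene passed for the letter effect between lines. The lowest count of any gene in any tumor, 3, was of Sox17, so depth limits that gene most.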
